A study of Mus musculus with 8 samples.

Results

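The axon guidance families are secreted or membrane-bound cues and the receptors that read them, and 53 of the 10987 transcripts listed in these libraries belong to them by symbol. They are 5 secreted class 3 semaphorins, 12 membrane semaphorins (Sema4, Sema5 and Sema6), 8 plexins, the neuropilin Nrp2, 9 Eph receptors, 8 ephrins, 4 netrins and netrin-G proteins, the netrin receptors Unc5a and Unc5c, Slit1, Slit2 and Robo1. The same symbol rule also takes in Unc50, a Golgi protein that is no netrin receptor. It is given apart, and counts without it are stated where they matter. Dcc and Nrp1 are not analysed here.

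The study sequenced total RNA and ribosome-protected fragments (footprints) of mouse oligodendrocyte progenitor cells (OPCs) and of the oligodendrocytes made from them, with 2 cultures in each group and 8 libraries in all. The OPCs came from epiblast stem cells of the 129S/SvEv strain and carried no engineered allele or other treatment named in the labels. They grew on poly-L-ornithine and laminin with PDGFA and bFGF, each at 20 ng/mL. Oligodendrocytes were collected after 3 days in medium with 40 ng/mL thyroid hormone (T3), 100 ng/mL noggin, 100 ng/mL IGF-1, 10 ng/mL NT3 and 10 uM cyclic AMP, without PDGFA or bFGF. This is a dish model with no axons. The cultures can hold cells that have not differentiated, and in bulk samples a change in the share of a cell type and a change in RNA per cell cannot be told apart. Levels are FPKM, read counts scaled to the length of the transcript (RNA-seq) or of the CDS (footprints) and to the mapped reads of the library, so they can be compared between genes within one kind of library. The cultures of a group are described by the study as biological replicates. With 2 in each group, the p-values of RNA-seq and of footprints measure only the spread between them.

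Semaphorins signal through plexins, whose cytoplasmic part acts on small GTPases and collapses or steers cell processes. Class 3 semaphorins mostly need a neuropilin as co-receptor, while Sema3e can bind Plxnd1 directly. Known pairs among membrane semaphorins include Sema4d with Plxnb1 and Plxnb2, Sema5a with Plxnb3 and with class A plexins, and Sema6a with Plxna2 and Plxna4. Ephrins and Eph receptors are both anchored to cells and can signal in either direction across a contact. Netrins bind Dcc and the Unc5 receptors, and Slits bind Robos. In the oligodendrocyte lineage these families are known for guiding OPC migration and for contacts with axons.

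Members chosen for a large rise in RNA-seq are shown first by the 250 bases upstream of their RefSeq start (GRCm38.p6). Of the 53 members, 46 had an entry in the RefSeq promoter table and 40 had one whose start lay within 500 bases of the listed transcript. Sema4d, whose RNA-seq rise was larger than that of Plxnb3, was not among these 40. The 4 with the largest RNA-seq rise among these 40 are printed on their own strand: Sema3e at chr5:14025026-14025275, Plxnb3 at chrX:73756853-73757102, Sema5a at chr15:32244563-32244812 and Sema3d at chr5:12382916-12383165, each on the plus strand. Capitals mark matches, on either strand, to ACAAAG (bound by Sox factors), CAGCTG (an E-box, its own reverse complement), AGGTCA (a thyroid hormone receptor half-site) and CTGGCAC (bound by Myrf).
Sema3e: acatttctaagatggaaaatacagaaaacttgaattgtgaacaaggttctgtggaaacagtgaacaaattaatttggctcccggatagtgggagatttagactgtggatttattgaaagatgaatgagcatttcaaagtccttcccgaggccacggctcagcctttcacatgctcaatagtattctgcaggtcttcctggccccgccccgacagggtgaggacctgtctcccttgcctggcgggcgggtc
Plxnb3: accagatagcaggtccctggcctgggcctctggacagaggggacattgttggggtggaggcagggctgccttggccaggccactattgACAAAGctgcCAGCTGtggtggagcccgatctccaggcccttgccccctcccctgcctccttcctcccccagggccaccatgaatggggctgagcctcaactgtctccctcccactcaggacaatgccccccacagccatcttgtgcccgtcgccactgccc
Sema5a: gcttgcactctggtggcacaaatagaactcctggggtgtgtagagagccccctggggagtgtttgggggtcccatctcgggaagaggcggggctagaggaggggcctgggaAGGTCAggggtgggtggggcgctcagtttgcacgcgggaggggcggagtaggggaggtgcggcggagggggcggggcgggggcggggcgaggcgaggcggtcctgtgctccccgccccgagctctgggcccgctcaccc
Sema3d: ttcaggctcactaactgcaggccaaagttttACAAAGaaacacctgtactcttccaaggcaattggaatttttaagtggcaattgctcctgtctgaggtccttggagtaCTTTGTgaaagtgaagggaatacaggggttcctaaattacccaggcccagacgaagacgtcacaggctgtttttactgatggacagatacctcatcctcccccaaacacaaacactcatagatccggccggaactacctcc

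In this window Plxnb3 held 1 Sox match and 1 E-box, Sema5a held 1 AGGTCA, Sema3d held 2 Sox matches and Sema3e held none of the 4. None of the 4 promoters held CTGGCAC. Over 32817 promoters of the same length the letters of the Sox motif were found in 16.5%, of the E-box in 13.0%, of the half-site in 14.03% and of the Myrf motif in 4.19%. Among the 40 members the Sox letters were found in 5, the half-site in 5, the E-box in 3 and the Myrf letters in 1, and 28 held none of the 4. The base composition of the printed promoters also differed, with 48.0% G and C in Sema3e, 46.8% in Sema3d, 65.2% in Plxnb3 and 72.0% in Sema5a. The Sox letters were found in Plxnb3 and Sema3d, no motif was found in all 4 windows, and a match describes letters only.

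Guidance genes changed in both directions between OPCs and oligodendrocytes, and semaphorins made up most of the rises. In RNA-seq, 38 members had a mean of at least 1 FPKM and were tested, and 19 passed an adjusted p of 0.05 (limma), 9 higher and 10 lower in oligodendrocytes. Over all 8346 transcripts tested, 33.2% passed, 13.0% higher and 20.2% lower. In footprints, 40 members were tested and 17 passed, 14 higher and 3 lower, against 23.6% of all 8342 transcripts, 12.8% higher and 10.8% lower. The median log2 fold change of the members was 0.20 in RNA-seq and 0.17 in footprints, and that of all tested transcripts was -0.23 and -0.16. Without Unc50 the medians of the members were 0.12 and -0.00, and the counts of calls were the same. Of the tested members, 5 in RNA-seq and 7 in footprints averaged under 1 FPKM in OPCs and passed that minimum through oligodendrocytes, and 2 and 4 passed it through OPCs. The rises that entered through oligodendrocytes were Sema3e, Sema4d and Epha4 in RNA-seq and Sema3e, Sema4d and Sema4g in footprints. The fall of Efna4 in RNA-seq entered through OPCs.

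The 6 members that passed in RNA-seq under each setting tried were Sema3d, Sema3e, Sema4d, Sema5a and Plxnb3 upward and Plxnb2 downward. Leaving out OPC replicate 1 or OPC replicate 2 left these 6 calls of 19 in RNA-seq, where the share of all transcripts fell from 33.2% to 4.31% and 3.64%. In footprints no member, and none of all 8342 transcripts, passed in limma without OPC replicate 1 or without OPC replicate 2. The footprint count was 29 without oligodendrocyte replicate 1 (36.1% of all transcripts) and 10 without oligodendrocyte replicate 2 (11.3% of all). Of the 29, 14 were lower, and 8 of these are listed at 0 in oligodendrocyte replicate 2, the only oligodendrocyte value then left. When each library was divided by its median ratio to the others, the RNA-seq median of all transcripts moved from -0.23 to -0.05 and 20 members passed, 12 higher and 8 lower.

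**Figure D1:**
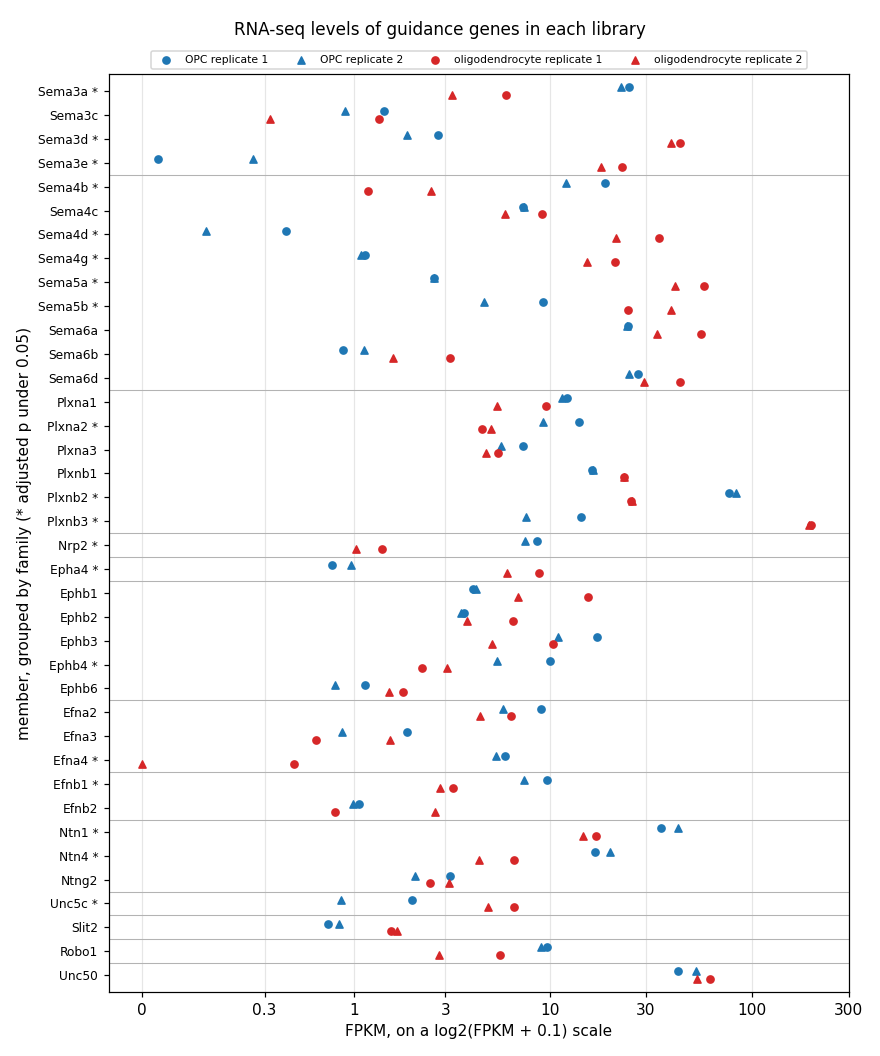
RNA-seq FPKM of the 38 tested members in each library, on a log2(FPKM + 0.1) scale, with OPC cultures in blue, oligodendrocyte cultures in red, circles for replicate 1 and triangles for replicate 2. An asterisk marks an adjusted p under 0.05, and Plxnb3 has the highest level, 195 and 191 FPKM in oligodendrocytes.

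Secreted semaphorins split into rises and falls. Sema3e (GRCm38 chr5:14025276-14256689, plus strand), best known from blood vessel and thalamic axon patterning, was at 0.0200 and 0.252 FPKM in the OPC RNA-seq libraries and at 22.7 and 17.9 FPKM in those of oligodendrocytes. Its footprints were listed at 0 in both OPC cultures and stood at 102 and 95.0 FPKM in oligodendrocytes. The OPC values correspond to about 1.11 and 9.57 reads of 30 bases, and the first lies under the floor of 3 reads (0.0543 FPKM), so Sema3e was close to the limit of detection in OPCs and plainly present in oligodendrocytes. It rose in RNA-seq with an adjusted p of 0.00202, and its log2 fold change of 6.63 (SE 0.65) was 4.23 with a pseudocount of 1 FPKM and at most 7.40 over the settings, so it is no bound on the true change. Footprints passed too, with an adjusted p of 0.00416 and no fold given against OPC libraries at 0.

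Sema3d (chr5:12383385-12588948, plus strand), a secreted semaphorin studied in cardiac and neural crest cells, had RNA-seq levels of 2.74 and 1.91 FPKM in OPCs against 44.0 and 39.9 FPKM in oligodendrocytes. Footprint levels were 5.11 and 7.17 FPKM in OPCs against 156 and 213 FPKM in oligodendrocytes. The groups did not overlap in either kind of library. On the log2 scale the rise was 4.14 (SE 0.27, adjusted p = 0.000657) in RNA-seq and 4.89 (SE 0.28, adjusted p = 0.00416) in footprints.

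Sema3a (chr5:13399309-13602565, plus strand), the prototype repulsive semaphorin and one that is known to repel OPCs, went the other way. RNA-seq levels were 24.6 and 22.7 FPKM in OPCs against 6.09 and 3.25 FPKM in oligodendrocytes, and footprints were 54.9 and 56.3 FPKM against 13.9 and 4.22 FPKM. It was the most abundant secreted semaphorin in OPCs and stood below Sema3d and Sema3e in oligodendrocytes. For Sema3a the log2 fold change was -2.38 (SE 0.34, adjusted p = 0.00564) in RNA-seq and -2.84 (SE 0.63, adjusted p = 0.0451) in footprints. Sema3c, between 0.325 and 1.45 FPKM in RNA-seq, did not pass in either kind, and Sema3f, at most 0.398 FPKM, was not tested.

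Membrane semaphorins, the largest family here with 12 members, were the group with the most rises. Of 9 tested in RNA-seq, 4 rose and 1 fell at an adjusted p of 0.05. Of 10 tested in footprints, 7 rose and none fell at that threshold. In footprints 8 were under an unadjusted p of 0.05, a share not counted over all transcripts. Over all transcripts 13.0% rose and 20.2% fell in RNA-seq, and 12.8% rose and 10.8% fell in footprints. The median of this group was 1.11 (RNA-seq) and 2.01 (footprints) on the log2 scale, beside -0.23 and -0.16 for all transcripts. In footprints 4 of the 10 (Sema4d, Sema4g, Sema6b and Sema6c) averaged under 1 FPKM in OPCs and were tested only because they were higher in oligodendrocytes, which bears on this median and on 2 of the 7 rises. In RNA-seq this holds for Sema4d.

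Sema5a (chr15:32244813-32696341, plus strand), a transmembrane semaphorin with thrombospondin repeats that has been described in oligodendrocytes as inhibitory for axon growth, was at 2.63 and 2.62 FPKM in OPC RNA-seq and at 58.3 and 41.9 FPKM in oligodendrocytes. Footprints were 5.07 and 4.73 FPKM in OPCs against 149 and 133 FPKM in oligodendrocytes. Neither kind of library showed overlap between the groups. It rose by a log2 fold change of 4.18 (SE 0.26, adjusted p = 0.000547) in RNA-seq and of 4.82 (SE 0.19, adjusted p = 0.00297) in footprints. Its relative Sema5b was already at 9.30 and 4.71 FPKM in OPCs and reached 24.4 and 39.8 FPKM (log2 fold change 2.22, SE 0.40, adjusted p = 0.0113), with 2.07 (SE 0.20, adjusted p = 0.00905) in footprints.

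Sema4d (chr13:51701246-51793747, minus strand), a cue known to be made by oligodendrocytes and to act on axons and OPCs through plexin-B receptors, was at 0.409 and 0.105 FPKM in OPC RNA-seq and at 34.9 and 21.2 FPKM in oligodendrocytes. Footprints were 0.682 FPKM in OPC replicate 1, listed at 0 in OPC replicate 2, and 74.3 and 74.9 FPKM in oligodendrocytes. As for Sema3e, Sema4d was near the limit of detection in OPCs, with about 14.8 and 2.60 reads of 30 bases in RNA-seq. Sema4d rose in RNA-seq (adjusted p = 0.00154) and in footprints (adjusted p = 0.0176), with a log2 fold change in RNA-seq between 4.50 and 7.06 over the settings.

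Sema4g, a class 4 semaphorin, had 1.14 and 1.10 FPKM in OPC RNA-seq and 21.0 and 15.4 FPKM in oligodendrocytes (log2 fold change 3.89, SE 0.33, adjusted p = 0.00135). Footprints were 0.632 and 0.511 FPKM in OPCs against 20.1 and 9.21 FPKM in oligodendrocytes (log2 fold change 4.36, adjusted p = 0.0228). Its ratio of footprint to RNA-seq level in oligodendrocytes was 0.959 and 0.598, beside a median of 2.02 and 1.95 over all transcripts. Sema4b, also of class 4, fell in RNA-seq from 18.9 and 12.1 FPKM to 1.19 and 2.53 FPKM (log2 fold change -3.05, SE 0.46, adjusted p = 0.00642). Its footprints were 35.1 and 31.5 FPKM in OPCs, 5.57 FPKM in oligodendrocyte replicate 1 and listed at 0 in replicate 2. They did not pass (adjusted p = 0.143) and did without oligodendrocyte replicate 2 (log2 fold change -2.56, adjusted p = 0.0437) and without replicate 1, where only the value at 0 is left (adjusted p = 0.0119).

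At the estimated depth of oligodendrocyte footprint replicate 2, the level of replicate 1 would give about 42.6 reads of 30 bases on Sema4b and 31.8 on Nrp2, and both are listed at 0. In that library 507 transcripts are listed at 0 that are above 5 FPKM in replicate 1, against 4 in the reverse direction. Such a value may be a failed estimate, so for members at 0 in that library each value is given, with no footprint fold from it.

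Sema6a and Sema6d, transmembrane semaphorins that bind class A plexins, were among the most abundant members in both cell types. Sema6a stood at 24.4 and 24.1 FPKM in OPC RNA-seq and 55.9 and 34.0 FPKM in oligodendrocytes, which did not pass (log2 fold change 0.85, adjusted p = 0.0555) and did with the cultures paired (adjusted p = 0.0204). Its footprints rose from 30.8 and 36.4 FPKM to 122 and 139 FPKM (log2 fold change 1.95, SE 0.16, adjusted p = 0.00724). Sema6d rose in footprints from 31.1 and 31.5 FPKM to 63.4 and 67.2 FPKM (log2 fold change 1.06, SE 0.14, adjusted p = 0.0155), and its RNA-seq levels, 27.3 and 24.7 against 44.2 and 29.4 FPKM, did not pass (adjusted p = 0.183).

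Sema4c showed the widest gap between the kinds of library among the members with no value at 0. RNA-seq levels were 7.34 and 7.44 FPKM in OPCs against 9.20 and 5.98 FPKM in oligodendrocytes, which overlap, with a log2 fold change of 0.01 (adjusted p = 0.992). Footprints were 8.34 and 7.33 FPKM in OPCs against 25.7 and 30.7 FPKM in oligodendrocytes, a rise of 1.83 (SE 0.27, adjusted p = 0.0185) on the log2 scale. On the opposite strand, D430040D24Rik shares 334 exonic bases with its transcript of 3773 bases, and the study's code sets no strand option, so reads of the 2 genes may not be told apart. Sema6b, at most 3.16 FPKM in RNA-seq, had no call in either kind, Sema6c was tested in footprints only and had none, and Sema4a and Sema4f, at most 0.511 FPKM in RNA-seq, were not tested.

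Plexins, the receptors of semaphorins, changed in opposite directions within the B class. Plxnb3 (chrX:73757099-73772514, plus strand), known as a receptor of Sema5a and as a plexin of the oligodendrocyte lineage, was at 14.3 and 7.66 FPKM in OPC RNA-seq and at 195 and 191 FPKM in oligodendrocytes. Footprints were 15.5 and 12.9 FPKM in OPCs against 390 and 463 FPKM in oligodendrocytes. It was the most abundant member in oligodendrocytes in both kinds of library. On the log2 scale the rise was 4.19 (SE 0.30, adjusted p = 0.000869) in RNA-seq and 4.90 (SE 0.17, adjusted p = 0.00279) in footprints.

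Plxnb2 (chr15:89155549-89170688, minus strand), a broadly expressed receptor of Sema4 ligands, was the most abundant member in OPC RNA-seq, at 77.2 and 83.1 FPKM, and stood at 25.3 and 25.5 FPKM in oligodendrocytes. Footprints were 71.3 and 85.5 FPKM against 32.4 and 20.3 FPKM. It fell by 1.65 (SE 0.15, adjusted p = 0.00171) on the log2 scale in RNA-seq and by 1.60 (SE 0.29, adjusted p = 0.0280) in footprints. Plxnb1, the main Sema4d receptor, had RNA-seq levels of 16.2 and 16.4 FPKM in OPCs against 23.5 and 23.5 FPKM in oligodendrocytes and did not pass (log2 fold change 0.52, adjusted p = 0.0737). Its transcript shares 257 exonic bases with Gm7628 on the other strand.

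Plxna2, a receptor for Sema6a and, with neuropilins, for class 3 semaphorins, fell in RNA-seq from 13.97 and 9.27 FPKM to 4.61 and 5.10 FPKM (log2 fold change -1.21, SE 0.31, adjusted p = 0.0308), a call lost under median-ratio scaling (adjusted p = 0.0504). In footprints it went from 13.3 and 11.4 FPKM to 3.51 and 2.38 FPKM, a fall of -2.05 (adjusted p = 0.0457) that did not pass with the cultures paired (adjusted p = 0.0874). Plxna1 and Plxna3, between 4.83 and 12.3 FPKM in RNA-seq, did not pass in either kind. Plxnd1, the receptor of Sema3e, had 1.79 and 0.737 FPKM in OPC RNA-seq and 0.789 and 0.141 FPKM in oligodendrocytes, and with Plxna4 it was below the minimum for a test. The level of Sema3e was thus above that of Plxnd1 in oligodendrocytes and below it in OPCs.

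Nrp2, the co-receptor of several class 3 semaphorins, fell in RNA-seq from 8.63 and 7.52 FPKM to 1.40 and 1.03 FPKM (log2 fold change -2.64, SE 0.39, adjusted p = 0.00594). Footprints were 16.3 and 18.5 FPKM in OPCs, 3.68 FPKM in oligodendrocyte replicate 1 and listed at 0 in replicate 2.

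**Figure D2:**
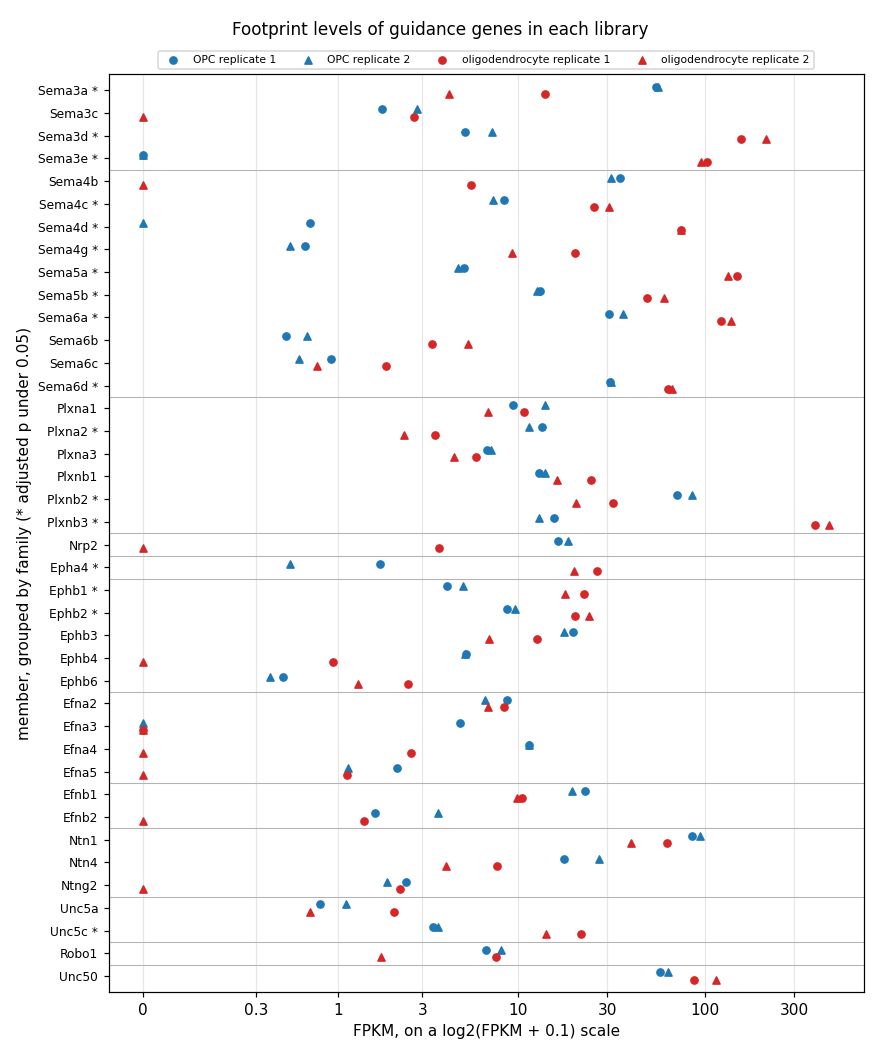
Footprint FPKM on the CDS of the 40 tested members in each library, on a log2(FPKM + 0.1) scale, with the same colours and symbols as in the RNA-seq plot and an asterisk for an adjusted p under 0.05. Points at the left edge are values listed at 0, and most of those in red belong to oligodendrocyte replicate 2, as for Sema4b and Nrp2.

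Eph receptors and ephrins were called about as often as all transcripts, in 36.4% of those tested in RNA-seq (33.2% of all) and 25.0% in footprints (23.6% of all). Of 11 tested in RNA-seq, 1 rose and 3 fell at an adjusted p of 0.05. In footprints 5 of 12 tested were under an unadjusted p of 0.05, a share not counted over all transcripts. At an adjusted p of 0.05, 3 rose and none fell in footprints. Each of these few rises was of a receptor, in a group called at about the share of all transcripts. Epha4, which binds ephrins of both classes, was at 0.754 and 0.959 FPKM in OPC RNA-seq and at 8.84 and 6.15 FPKM in oligodendrocytes (log2 fold change 2.97, SE 0.44, adjusted p = 0.00598). In RNA-seq it averaged 0.857 FPKM in OPCs and met the minimum only through oligodendrocytes. Its footprints were 1.74 and 0.510 FPKM in OPCs against 26.6 and 19.9 FPKM in oligodendrocytes (log2 fold change 4.45, SE 0.73, adjusted p = 0.0237).

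Ephb1 and Ephb2, receptors of ephrin-B ligands, passed in footprints only. Ephb1 footprints were 4.09 and 5.04 FPKM in OPCs against 22.5 and 17.9 FPKM in oligodendrocytes (log2 fold change 2.12, adjusted p = 0.0237), and with paired cultures the adjusted p was 0.0547. Its RNA-seq levels, 4.16 and 4.31 against 15.5 and 6.95 FPKM, had an adjusted p of 0.0668, and of 0.0319 with paired cultures. Its transcript shares 152 exonic bases with Gm26846 on the other strand. Ephb2 footprints were 8.66 and 9.54 FPKM in OPCs against 20.2 and 24.0 FPKM in oligodendrocytes (log2 fold change 1.27, adjusted p = 0.0416, with paired cultures 0.0808).

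Ephb4, known as the receptor of ephrin-B2 on veins, fell in RNA-seq from 10.0 and 5.44 FPKM to 2.27 and 3.06 FPKM (log2 fold change -1.45, adjusted p = 0.0456), a call that was lost under median-ratio scaling (adjusted p = 0.0698) and without the variance trend (adjusted p = 0.0629). Ephb3, the most abundant Eph receptor in OPCs at 17.3 and 11 FPKM, was at 10.4 and 5.16 FPKM in oligodendrocytes and did not pass (adjusted p = 0.145, with paired cultures 0.0327). Ephb6, a receptor without kinase activity, was between 0.788 and 1.83 FPKM in RNA-seq with no call. Epha1, Epha2 and Epha7 were below the minimum.

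Among the ligands, Efna4 and Efnb1 fell in RNA-seq. Efna4, a lipid-anchored ephrin, went from 5.97 and 5.41 FPKM in OPCs to 0.457 FPKM and a value listed at 0 in oligodendrocytes (adjusted p = 0.0166), and its footprints were 11.4 and 11.4 FPKM against 2.61 FPKM and a value listed at 0. Its transcript overlaps 4731419I09Rik on the other strand by 168 exonic bases. Efnb1, a transmembrane ephrin, was at 9.73 and 7.42 FPKM in OPCs against 3.28 and 2.83 FPKM in oligodendrocytes (log2 fold change -1.45, SE 0.32, adjusted p = 0.0205). Its footprints, 22.8 and 19.4 against 10.4 and 9.82 FPKM, did not overlap between groups and did not pass (adjusted p = 0.0576). Efna2, the most abundant ephrin-A in the RNA-seq of both cell types, was at 9.02 and 5.89 FPKM in OPCs against 6.39 and 4.47 FPKM in oligodendrocytes, which overlap (adjusted p = 0.376).

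Of 3 netrins and netrin-G proteins tested in RNA-seq 2 fell, and a netrin receptor rose, where 20.2% of all transcripts fell and 13.0% rose. Ntn1, the attractive and repulsive cue of the netrin family, was at 35.4 and 43.0 FPKM in OPCs against 17.1 and 14.7 FPKM in oligodendrocytes (log2 fold change -1.30, SE 0.20, adjusted p = 0.00679). Its footprints were 85.0 and 93.8 FPKM against 62.5 and 40.1 FPKM and did not pass (adjusted p = 0.0936). Ntn4, a netrin that binds laminins, fell from 16.9 and 19.9 FPKM to 6.68 and 4.45 FPKM (log2 fold change -1.73, SE 0.29, adjusted p = 0.00875), with footprints of 17.6 and 27.1 against 7.71 and 4.04 FPKM (adjusted p = 0.0582).

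Unc5c, a receptor that mediates repulsion by netrin, rose from 2.03 and 0.845 FPKM to 6.61 and 4.92 FPKM in RNA-seq (log2 fold change 2.03, SE 0.53, adjusted p = 0.0339). Its footprints were 3.45 and 3.66 FPKM in OPCs against 21.7 and 14.1 FPKM in oligodendrocytes (log2 fold change 2.26, adjusted p = 0.0293, with paired cultures 0.0606). Gm15688 overlaps its transcript by 118 exonic bases on the other strand. Unc5a and Ntng1 were not tested in RNA-seq, and Ntng2, at 2.09 to 3.15 FPKM, had an adjusted p of 0.844.

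Slits and Robo1 are a repulsive ligand and receptor system. Robo1 was tested in both kinds of library and Slit2 in RNA-seq only, with no call, and Slit1 was below the minimum in both. Slit2 was at 0.722 and 0.828 FPKM in OPC RNA-seq and at 1.58 and 1.69 FPKM in oligodendrocytes (adjusted p = 0.246). Robo1 was at 9.69 and 9.02 FPKM in OPCs against 5.67 and 2.80 FPKM in oligodendrocytes, with a log2 fold change of -1.21 (adjusted p = 0.0648, with paired cultures 0.0323). Unc50, the Golgi protein, was at 43.3 and 53.2 FPKM in OPCs against 62.4 and 53.6 FPKM in oligodendrocytes and passed in neither kind, although its footprints did with paired cultures (adjusted p = 0.0461).

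RNA-seq and footprints moved the same way for most members. Of 37 tested in both, 35 had the same sign (94.6%, against 83.7% of 8056 transcripts), and 12 passed in both, 9 higher and 3 lower. The 7 that passed in RNA-seq only all fell, namely Sema4b, Nrp2, Ephb4, Efna4, Efnb1, Ntn1 and Ntn4, and in the first 4 of these the footprints of oligodendrocyte replicate 2 are listed at 0. Over all transcripts tested in both, 18.7% passed in both kinds, 15.2% in RNA-seq only, of which 76.9% fell, and 5.35% in footprints only, of which 60.6% rose. The 5 that passed in footprints only all rose, namely Sema4c, Sema6a, Sema6d, Ephb1 and Ephb2. Passing in one kind and not in the other is no test of the difference, which is the change in ribosome density.

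**Figure D3:**
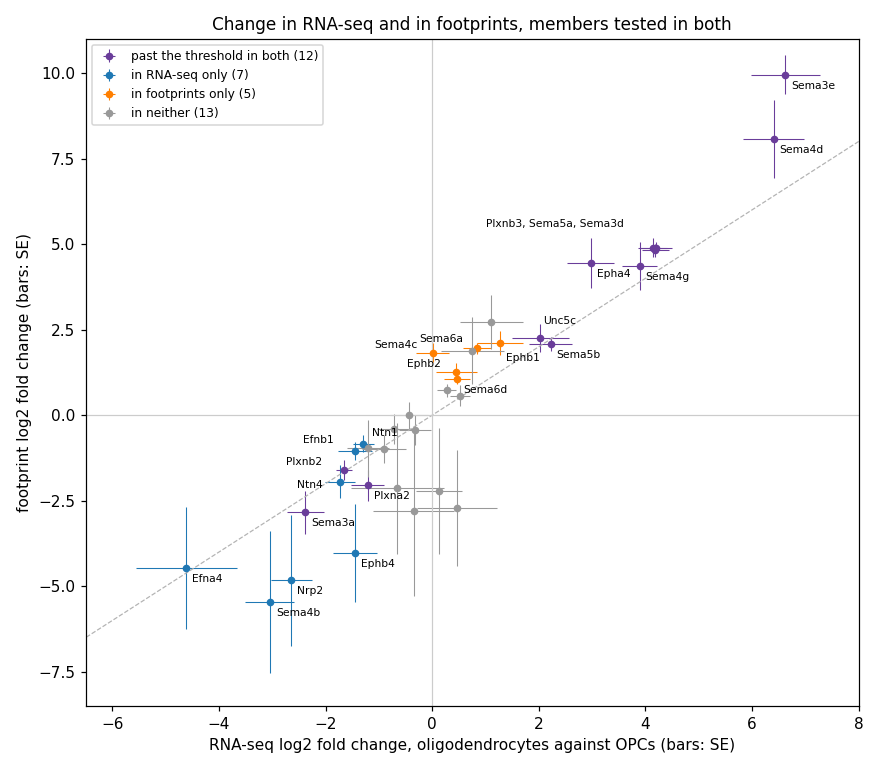
Log2 fold change of oligodendrocytes against OPCs in RNA-seq (horizontal) and in footprints (vertical) for the 37 members tested in both, with standard errors as bars and the dashed line marking equal change. Purple marks the 12 members past the threshold in both kinds, with Sema3e and Sema4d at the upper right, where footprint values rest on the pseudocount, and Sema3a and Plxnb2 among those that fell.

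Ribosome density (RD) is footprint FPKM divided by RNA-seq FPKM of the same culture, a measure of footprints per transcript. Differences in RD were tested in a single model of all 8 libraries, as an interaction term and with no term for culture. The RNA-seq and footprint libraries of a culture were thus treated as independent, although the study took both from the same lysate. The p-values of RD rest on the spread of the libraries and do not measure the spread of RD between cultures. Of 37 members tested none passed the adjusted threshold in limma, and 0.0124% of 8056 transcripts did. At an unadjusted p of 0.05 there were 3 members, and the share of all transcripts under it was not counted. Without oligodendrocyte replicate 1, 7 members passed, 2 higher and 5 lower, and 10.7% of all transcripts did. All 5 lower members (Sema4b, Nrp2, Ephb4, Efnb2 and Ntng2) are listed at 0 in the footprints of oligodendrocyte replicate 2, the only ones then left. The median RD of the members was 1.19 and 1.32 in OPCs and 1.89 and 2.29 in oligodendrocytes, and that of all transcripts was 1.72 and 1.77 in OPCs and 2.02 and 1.95 in oligodendrocytes. The members thus lay below the median of all transcripts in both OPC cultures and on either side of it in oligodendrocytes. These medians cover only members above 0 in both kinds, which were 36 and 34 in OPCs and 36 and 29 in oligodendrocytes.

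The 3 members under an unadjusted p of 0.05 were Sema4c, Sema3e and Sema6a. Sema4c had an RD of 1.14 and 0.985 in OPCs and 2.79 and 5.13 in oligodendrocytes, a log2 difference of 1.83 (SE 0.42, adjusted p = 0.710). Sema6a had an RD of 1.26 and 1.51 in OPCs and 2.18 and 4.07 in oligodendrocytes (log2 difference 1.11, adjusted p = 0.875). Both genes were picked by that unadjusted p, so the separation of their cultures is no further evidence. In both the second oligodendrocyte culture was the highest. For Sema3e the OPC footprints are listed at 0, so no RD is given for OPCs, and it was 4.51 and 5.30 in oligodendrocytes. Plxnb2, by contrast, had an RD of 0.924 and 1.03 in OPCs and 1.28 and 0.796 in oligodendrocytes, with a log2 difference of 0.05.

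**Figure D4:**
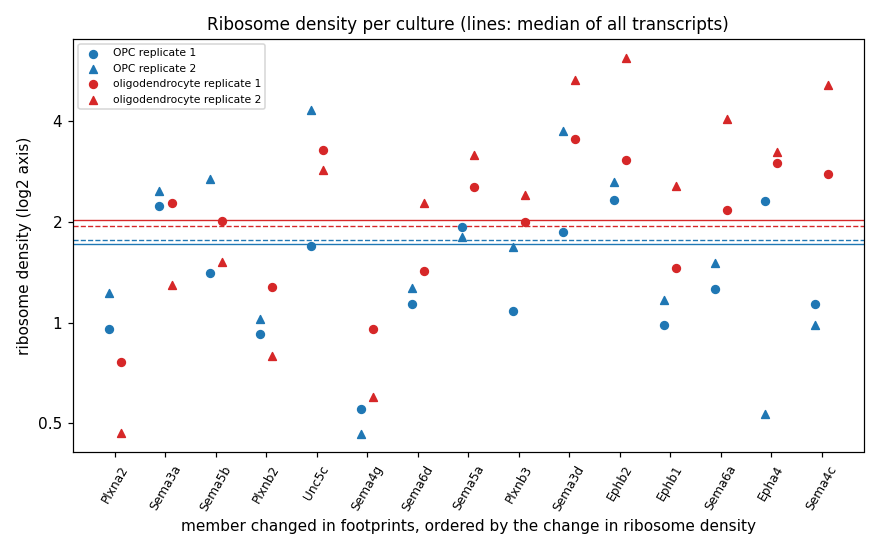
Ribosome density per culture, on a log2 axis, of 15 members changed in footprints, ordered by its change from Plxna2 on the left to Sema4c on the right, with colours and symbols as in the level plots. Solid and dashed lines give the median of all transcripts in replicates 1 and 2 (1.72 and 1.77 in OPCs, 2.02 and 1.95 in oligodendrocytes), and Sema3e and Sema4d, which have OPC footprints listed at 0, are not plotted.

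The study asks how oligodendrocytes read the Phe codons UUU and UUC and the Lys codons AAA and AAG, so the codon use of the members is described here. The UUU share of Phe codons had a median of 37.3% in the 53 members and 42.9% in all listed transcripts, and the AAA share of Lys codons a median of 24.4% and 36.8%. The 9 members that rose in RNA-seq had medians of 40.0% and 41.2%, and the 10 that fell 34.2% and 20.5%. Over all transcripts the order was the other way, with a UUU median of 40.0% in those that rose and 46.7% in those that fell, and AAA medians of 33.3% and 37.8%. No test was made of this, since members were few and the values spread from 0% to 66.7% in UUU share.

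The extremes show the range, and their coding sequence is given for the 90-base stretch within 1 exon that is densest in Phe codons. Sema3e, which rose in RNA-seq, had the highest UUU share of the members, 24 UUU of 36 Phe codons (66.7%). Efnb1, which fell, had 10 Phe codons and each was UUC. The stretches lie at chr5:14225555-14225644 (plus strand, exon 7) and chrX:99147168-99147257 (plus strand, exon 5) in GRCm38, and capitals mark the Phe codons.
Sema3e: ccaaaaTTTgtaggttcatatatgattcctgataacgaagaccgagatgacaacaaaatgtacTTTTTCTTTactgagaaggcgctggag
Efnb1: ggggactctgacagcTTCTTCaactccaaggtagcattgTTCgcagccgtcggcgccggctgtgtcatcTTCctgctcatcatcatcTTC

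Genes that act with guidance receptors were also counted. Co-receptors and further cues, 12 of 18 listed, were called in 27.3% of those tested in RNA-seq and 18.2% in footprints, beside 33.2% and 23.6% of all transcripts. Of 11 tested in RNA-seq, 4 were under an unadjusted p of 0.05, a share not counted over all transcripts. At an adjusted p of 0.05 none rose. Chl1 (a neuropilin-linked adhesion molecule), Erbb2 (a receptor kinase that couples to plexin-B) and Adam10 (a protease that sheds ephrins and semaphorins) fell. In footprints Gpc1, a glypican that binds Slits, rose and Chl1 fell. Among intracellular partners, 41 of 55 listed, 10 of 40 tested rose and 6 fell in RNA-seq, and 12 rose and 3 fell in footprints, beside the 13.0% and 20.2% of all transcripts in RNA-seq and the 12.8% and 10.8% in footprints given above.

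Partners with roles in semaphorin signaling stood among the rises and among the falls. Rnd2, a small GTPase that binds plexins, went from 39.1 and 36.2 FPKM to 621 and 491 FPKM (log2 fold change 3.87, adjusted p = 0.000322). In RNA-seq its relatives Rnd1 and Rnd3 did not pass (log2 fold change -0.65 and -0.07, adjusted p = 0.188 and 0.909). The collapsin response mediators Dpysl3 and Dpysl4 rose by 3.27 and 3.11 on the log2 scale, and Dpysl2 by 0.83 (adjusted p = 0.0130). Crmp1 and Dpysl5 of the same family did not pass in RNA-seq (log2 fold change 0.67 and -0.04, adjusted p = 0.144 and 0.969). Fyn, a kinase that acts downstream of plexins and netrin receptors and in myelination, went from 149 and 129 FPKM to 324 and 289 FPKM (log2 fold change 1.14, adjusted p = 0.00510). Among those that fell, Limk1, a kinase that regulates cofilin, went from 12.3 and 11.8 FPKM to 1.94 and 1.83 FPKM (log2 fold change -2.61, adjusted p = 0.00310). Mical2, of the Mical family of actin-oxidizing enzymes, changed by -2.40 (adjusted p = 0.0497). Mical1 went the other way, with a rise of 3.15 in footprints (adjusted p = 0.0463), and did not pass in RNA-seq (log2 fold change 4.34, adjusted p = 0.0525). Vav3, a Rac activator used by Eph receptors, went from 26.03 and 33.9 FPKM to 1.80 and 3.51 FPKM (log2 fold change -3.51, adjusted p = 0.00252), and Srgap2, a Slit-Robo GTPase-activating protein, changed by -2.03 (adjusted p = 0.00251).

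The cultures were checked against markers of the cell types they could hold. Oligodendrocyte markers summed to between 46.0 and 49.2 FPKM in OPC RNA-seq and to 4062 and 3633 FPKM in oligodendrocytes, with 8 of 9 tested higher. Of 8 genes on the OPC list, 6 were higher in oligodendrocytes, Pdgfra among them, and the list's sum went from 1056 and 923 FPKM to 1524 and 1581 FPKM. Gpr17 went from 8.38 and 4.91 to 221 and 271 FPKM, and Sox10 from 23.4 and 12.5 to 101 and 87.6 FPKM. Olig1 and Ptprz1 did not pass. Cspg4, the OPC marker of the study's RT-PCR, is not listed, and the sum is no measure of the share of OPCs. All 4 cycling markers were lower (sums of 346 and 478 against 116 and 135 FPKM). Astrocyte markers summed to 412 and 385 against 425 and 352 FPKM, and of 6 tested 2 were higher (Slc1a2 by 1.79 on the log2 scale, and Gfap, at 14.2 and 2.11 FPKM in the oligodendrocyte cultures) and 1 was lower (Slc1a3, -1.08). Neuron markers summed to 132 and 118 against 188 and 201 FPKM, and of 6 tested 2 were higher (Tubb3 and Dcx, adjusted p = 0.00867 and 0.00367). Map2, at 102 and 95.7 FPKM in OPCs, did not pass (adjusted p = 0.178). Schwann cell markers summed to 34.2 and 23.1 against 16.6 and 13.0 FPKM. Microglial (2 of 6 listed), endothelial (1 of 5), mural and fibroblast (1 of 6) and pluripotency (1 of 3) markers summed to at most 0.678 FPKM. The markers that are not listed could not be checked. The part of these cells in the members' changes was not tested. Depth, estimated from the smallest step of the values and carrying a possible factor of 2, was between 92.994 and 249.194 megabases in footprints and between 77.928 and 241.443 in RNA-seq. The floor of 3 reads ranged over the members from 0.0290 to 0.817 FPKM in RNA-seq and from 0.0568 to 1.57 FPKM in footprints, counting error only.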

How the data were processed

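Ribosome footprints and total RNA of 2 OPC and 2 oligodendrocyte cultures were analysed, 8 libraries in all. The authors deposited FPKM values, which they made with hisat2 2.1.0 on GRCm38 and stringtie 1.3.5 with ballgown on canonical coding transcripts of Gencode vM9, with footprints taken over the CDS and RNA-seq over the transcript. Lysates were digested with micrococcal nuclease for footprints, and total RNA was fragmented with alkali. The alignment and counting commands in the study's code set no strand option.

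FPKM were used as deposited. The test was limma 3.58.1 (R 4.3.3, eBayes with a trend) on log2(FPKM + 0.1), two-sided. Benjamini-Hochberg adjustment covered every transcript whose mean reached 1 FPKM, and the threshold was 0.05. Fold changes are on the log2(FPKM + 0.1) scale, which understates those of low genes. Annotation and coding sequences came from Gencode vM21 (GRCm38). Reads are counted as 30-base equivalents of the estimated depth.

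Named members are those past the threshold (at most 30) and the most abundant of each family in RNA-seq, and the others are given for completeness. The members, the gene lists and the rule were chosen with earlier results of these data known. The study's methods state that oligodendrocytes were differentiated from the corresponding OPC replicates. The main fits left this pairing out. Same-numbered cultures were paired only in the replicate block, which gave the values reported with paired cultures. The correlation of their deviations from the group means was 0.108 over 8346 transcripts in RNA-seq and 0.0860 over 8342 in footprints. Alternatives changed the pseudocount, filter, scaling, variance model, block and replicates. With 2 cultures in each group, outlying cultures were not tested.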

Additional observations from a re-analysis of the deposited data

How the results depend on the processing

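The number of members past the threshold in RNA-seq, 19 with FPKM as deposited, was 20 with a pseudocount of 1 FPKM, 14 without the filter, 20 with median-ratio scaling, 19 without the variance trend and 23 with the replicate block, and between 6 and 16 when 1 culture was left out. The share of all transcripts ran from 3.64% to 39.8% over these settings. In footprints it was 17, and 19, 10, 18, 14 and 14 under the same alternatives, and between 0 and 29 when 1 culture was left out, while the share of all transcripts ran from 0% to 36.1%. Without the filter 10987 transcripts were tested. In ribosome density the count was 0 under each alternative other than leaving out oligodendrocyte replicate 1, which gave 7, and its range over left-out cultures was 0 to 7. A culture that remains alone in its group is assumed to vary like the other group. The replicate block ended the footprint calls of Ephb1, Ephb2, Plxna2 and Unc5c and added RNA-seq calls of Ephb1, Ephb3, Robo1 and Sema6a and the footprint call of Unc50, and changed no other call of a named member. The sign turned in RNA-seq for Sema4c when 1 culture was left out (range -0.30 to 0.31, below 0 without OPC replicate 1 or oligodendrocyte replicate 1). In footprints it turned for Efna2 with median-ratio scaling (0.019) and with 1 culture left out (-0.20 to 0.20), and for Robo1 without oligodendrocyte replicate 2 (range -1.99 to 0.044). In ribosome density it turned, among members that passed in footprints, for Plxnb2 with median-ratio scaling (-0.11) and with 1 culture left out (-0.29 to 0.39), for Sema5b without OPC replicate 2 or oligodendrocyte replicate 2 (range -0.61 to 0.31), and for Unc5c without OPC replicate 1 (range -0.39 to 0.86). Over all settings it also turned for Sema4b (-5.85 to 1.00), Nrp2 (-4.60 to 0.23), Efna4 (-0.99 to 1.29), Robo1 (-0.29 to 0.76) and Ephb3 (-0.33 to 0.16), of which Sema4b, Nrp2 and Efna4 are listed at 0 in the footprints of oligodendrocyte replicate 2. None of these turned values was past the threshold, and the cause was not tested.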
